A study of Mus musculus with 6 samples.

Results

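The miRNAs described here are miR-221 and miR-222, neighbours on mouse chromosome X with a shared seed, and miR-31, from chromosome 4. Every entry of the deposited small RNA table named mmu-miR-221, mmu-miR-222 or mmu-miR-31, with any arm suffix, was taken. This gave 6 of 1712 entries, the 5p and the 3p arm of each of the 3 hairpins, and all 6 are accounted for below. The libraries came from extracellular vesicles shed by apoptotic osteoblasts, the bone-forming cells, which had been kept in serum-free medium for 48 h after apoptosis was induced, and were pelleted by ultracentrifugation. One group was Prx1cre;SIRT6f/f (3 libraries, called knockout), in which Cre under the Prx1 enhancer acts in the limb mesenchyme lineage on floxed alleles of Sirt6, a nuclear deacetylase. It was set against SIRT6f/f (3 libraries, called control), which carries the same floxed alleles and for which no Cre is named. Age, sex, the number of mice and any pooling are not given in the labels. Loss of Sirt6 itself is not measured by a small RNA table.

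A miRNA hairpin is cut into a duplex of a 5p and a 3p arm, and usually 1 arm is kept by an Argonaute protein while the other is degraded. The kept arm pairs with mRNAs mainly through its seed, bases 2 to 8 from the 5′ end. miR-221-3p and miR-222-3p are known as repressors of Cdkn1b, which encodes the cell-cycle inhibitor p27, and of Kit, a receptor tyrosine kinase. They are also well known in the blood vessel wall. miR-31 is best known from tumour cells, where its locus is often lost or its level altered.

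The mature sequences show which of these arms can pair with the same mRNAs. RefSeq on GRCm38.p6 holds 5 of the 6, and the seed is in capitals.
mmu-miR-221-3p: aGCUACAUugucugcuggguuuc
mmu-miR-222-3p: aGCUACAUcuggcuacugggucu
mmu-miR-31-5p: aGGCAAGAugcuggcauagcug
mmu-miR-221-5p: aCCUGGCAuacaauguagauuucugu
mmu-miR-31-3p: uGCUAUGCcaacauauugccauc
miR-221-3p and miR-222-3p shared their first 8 bases, seed included, and had the same base at 11 of 23 positions when set side by side without gaps. The other arms each had a seed of their own. Among the 1304 named entries of the table that matched RefSeq, no other entry had one of these seeds.

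The hairpins show where the arms sit, with the arms that RefSeq lists in capitals.
Mir221: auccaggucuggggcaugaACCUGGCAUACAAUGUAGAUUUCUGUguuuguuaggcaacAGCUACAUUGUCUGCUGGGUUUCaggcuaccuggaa
Mir222: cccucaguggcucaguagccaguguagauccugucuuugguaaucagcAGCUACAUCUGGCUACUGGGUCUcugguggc
Mir31: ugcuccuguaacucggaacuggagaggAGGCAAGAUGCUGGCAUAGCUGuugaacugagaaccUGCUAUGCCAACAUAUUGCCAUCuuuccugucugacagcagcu
Mir221 lies at chrX:19146294-19146388 and Mir222 at chrX:19146893-19146971, both on the minus strand, with 504 bases between them. No other gene overlaps either hairpin in GENCODE M21. Mir31 lies at chr4:88910557-88910662 on the minus strand, within an exon (chr4:88909855-88910710) of the long non-coding RNA AL805899.1, which runs on the same strand. The 2 arms of a hairpin come from the same precursor, and Mir221 and Mir222 are close neighbours, so the 6 entries are not independent of each other.

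The depth recovered from the steps of the RPM values (reads scaled to each library's total) was 1608276 to 1838239 reads in the knockout libraries and 1352045 to 1627705 reads in the control libraries. The labels name no separate animals or cultures, so the spread between libraries may be technical. Named miRNA entries without 7 fragment-like ones (possible pieces of ribosomal or transfer RNA), called ordinary named entries, took 36.0% ± 5.47 of reads in the knockout and 49.4% ± 2.79 in the control libraries (mean ± SD, n = 3 each). These shares did not overlap (exact 2-sided permutation p = 0.1, the lowest possible with 3 libraries a group). Knockout replicate 3 had the lowest share, 29.8%. A level in RPM is a share of listed reads, so less of a miRNA and more of the other listed RNA cannot be told apart, and the number of vesicles is not measured.

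The arms most abundant in each hairpin, miR-31-5p, miR-222-3p and miR-221-3p, were at lower levels in all 3 knockout libraries than in any control library. This was also so for miR-31-3p, for 19.3% of tested entries and for 53.2% of the 267 ordinary named entries averaging 10 RPM or more. None of these arms passed the test across all entries. miR-221-5p, the lesser arm of its hairpin, did not share this pattern, with means of 50.0 RPM in the knockout and 40.8 RPM in the control group. All 6 entries passed the filter on low values (at least 1 RPM in at least 3 libraries). Of the 6 entries, 0 were called lower and 0 higher (limma with Benjamini-Hochberg adjusted p under 0.05 over 1114 tested entries), and 1 of 6, miR-31-5p, had an unadjusted p under 0.05. Over all tested entries 2.69% were called lower and 2.15% higher. An unadjusted p under 0.05 was reached by 14.6% with a lower and 5.39% with a higher level. That puts 1 of 6 near the share over the table. When only the 355 entries averaging 10 RPM or more were tested, 128 were lower at an unadjusted p under 0.05. Of the 6 entries, 5 average 10 RPM or more. In RPM 30 entries were called lower and 24 higher, and after rescaling to ordinary named entries 1 was lower and 34 were higher.

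miR-31-5p, the major arm of its hairpin, was the most abundant of the 6. It had 316, 401 and 215 RPM in knockout replicates 1, 2 and 3, against 585, 524 and 522 RPM in control replicates 1, 2 and 3. The control libraries lay close together, and every knockout library was below them, with replicate 3 the lowest. The means were 310.4 ± 92.9 RPM in the knockout and 544 ± 36.1 RPM in the control group (SD, n = 3 each). The log2 difference was -0.85 ± 0.29 (SE, 95% interval -1.42 to -0.28, limma adjusted p = 0.0618). It passed the threshold without knockout replicate 3 (-0.61, limma adjusted p = 0.0465), without knockout replicate 2 (-1.06, limma adjusted p = 0.0362), and when entries averaging below 10 RPM were left out of the test (limma adjusted p = 0.0329). It did not pass without knockout replicate 1 (limma adjusted p = 0.107) or without control replicates 1, 2 and 3 in turn (0.264, 0.154 and 0.224). Over all 17 alternatives the limma adjusted p ranged from 0.0329 to 0.436, the highest without the mean-variance trend.

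miR-222-3p was the next in level. It had 201, 202 and 143 RPM in knockout replicates 1, 2 and 3, against 277, 241 and 246 RPM in control replicates 1, 2 and 3. The groups did not overlap, and knockout replicate 3 was again the lowest, well apart from the near-equal replicates 1 and 2. The means were 182 ± 34.2 RPM in the knockout and 255 ± 19.3 RPM in the control group (SD, n = 3 each), with a log2 difference of -0.50 ± 0.30 (SE, 95% interval -1.09 to 0.09, limma adjusted p = 0.371). Leaving out knockout replicate 3 gave -0.33.

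Its neighbour miR-221-3p, which carries the same seed, had 139, 151 and 94.7 RPM in knockout replicates 1, 2 and 3. The values in control replicates 1, 2 and 3 were 193, 179 and 197 RPM. Again knockout replicate 3 was the lowest and no knockout library reached a control library. The means were 128 ± 29.5 RPM in the knockout and 189.6 ± 9.35 RPM in the control group (SD, n = 3 each). The log2 difference was -0.59 ± 0.31 (SE, 95% interval -1.20 to 0.02, limma adjusted p = 0.265), and -0.39 without knockout replicate 3. Together the 2 arms with the shared seed came to 310.1 ± 63.5 RPM in the knockout and 444 ± 25.02 RPM in the control group (SD, n = 3 each), close to miR-31-5p alone in the knockout group and below it in the control group.

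**Figure D1:**
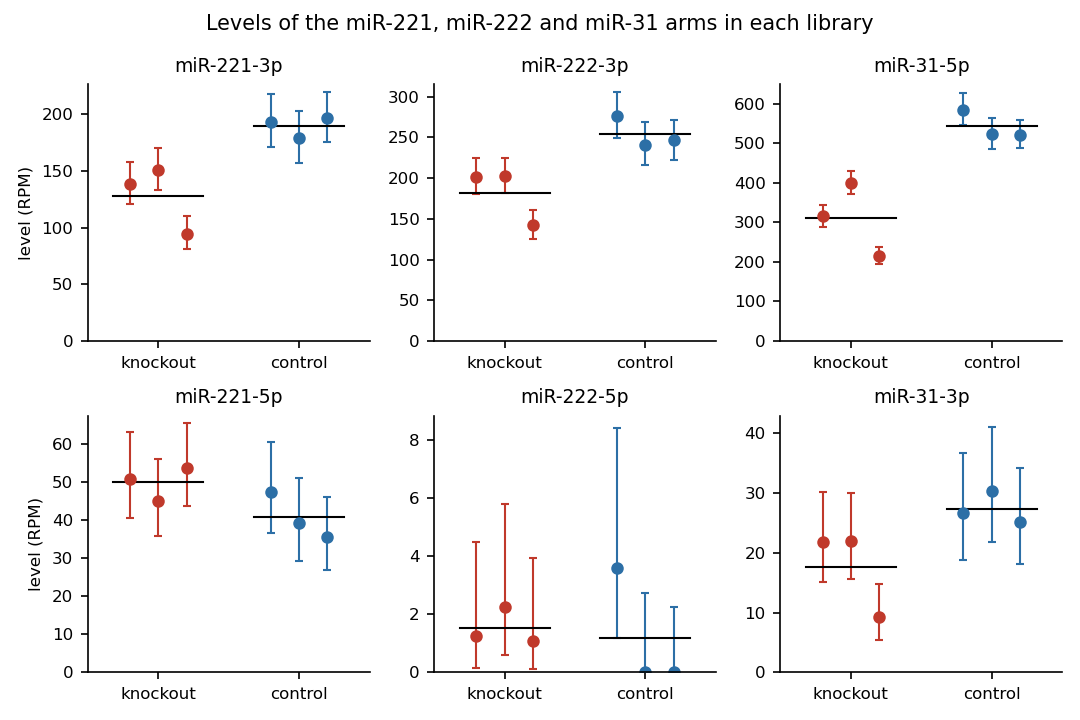
Level of each arm in RPM (vertical axis, from 0, a scale of its own in each panel) in the 3 knockout libraries (red, left) and the 3 control libraries (blue, right); points are libraries in replicate order, vertical bars are 95% Poisson counting intervals that take a listed 0 as 0 reads, and black lines are group means. miR-221-3p, miR-222-3p, miR-31-5p and miR-31-3p show knockout points wholly below the control points, while miR-221-5p does not, with means of 50.0 and 40.8 RPM.

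Of the lesser arms, miR-31-3p followed the direction of its partner at a far lower level. It had 21.8, 22.0 and 9.25 RPM in the knockout libraries, from 35, 39 and 17 reads, against 26.7, 30.3 and 25.2 RPM in the control libraries, from 37, 41 and 41 reads. The groups did not overlap, yet replicates 1 and 2 of the knockout were close to the control range. The log2 difference was -0.69 ± 0.43 (SE, 95% interval -1.54 to 0.15, limma adjusted p = 0.381), and -0.31 without knockout replicate 3.

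miR-221-5p had 51.0, 45.2 and 53.9 RPM in the knockout libraries, against 47.6, 39.2 and 35.6 RPM in the control libraries. The groups overlapped, and knockout replicate 3, which was the lowest library for miR-221-3p, miR-222-3p, miR-31-5p and miR-31-3p, was the highest here. The means were 50.0 ± 4.41 RPM in the knockout and 40.8 ± 6.14 RPM in the control group (SD, n = 3 each), with a log2 difference of 0.29 ± 0.37 (SE, 95% interval -0.43 to 1.02, limma adjusted p = 0.72).

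miR-222-5p was at the limit of detection. It had 1.24, 2.26 and 1.09 RPM in the knockout libraries, from 2, 4 and 2 reads, against 3.60 RPM from 5 reads in control replicate 1. It was listed at 0 in control replicates 2 and 3. The lowest count in every library was 2 reads, so a listed 0 may hide 1 read and no upper limit is given. No fold is given at such counts, although the entry passed the filter on low values, and a difference was not detectable at this depth. Counting intervals cover counting error only.

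The order of the levels was the same in all 6 libraries, with miR-31-5p first, then miR-222-3p, miR-221-3p, miR-221-5p, miR-31-3p and miR-222-5p. The 5 arms with a RefSeq sequence are similar in length, at 22 to 26 bases, and RPM is not divided by length. Within the knockout group the ranges of miR-222-3p and miR-221-3p overlapped, while those of the other neighbours in the order did not. The control ranges did not overlap for any pair of neighbours. Among the 1528 named entries miR-31-5p ranked 70 to 79 in the knockout and 64 to 68 in the control libraries. miR-222-3p kept nearly the same place, 92 to 94 in the knockout and 95 in every control library, and miR-221-3p ranked 111 to 113 in the knockout and 107 to 112 in the control libraries. miR-221-5p ranked 133 to 165 in the knockout and 172 to 189 in the control libraries.

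That knockout libraries lay wholly below control libraries was common in this table. It held for 4 of the 6 entries, for 19.3% of all 1114 tested entries and for 53.2% of the 267 ordinary named entries averaging 10 RPM or more, the kind to which 5 of the 6 belong. The median log2 difference of those 267 entries was -0.60 and that of the 75 averaging 100 to 1000 RPM was -0.66, against -0.27 over all tested entries. The values of miR-221-3p (-0.59) and miR-222-3p (-0.50) were near these medians, and that of miR-31-5p (-0.85) was below them. The share of reads in ordinary named entries also differed between the groups, as given above, and levels rescaled to it follow.

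**Figure D2:**
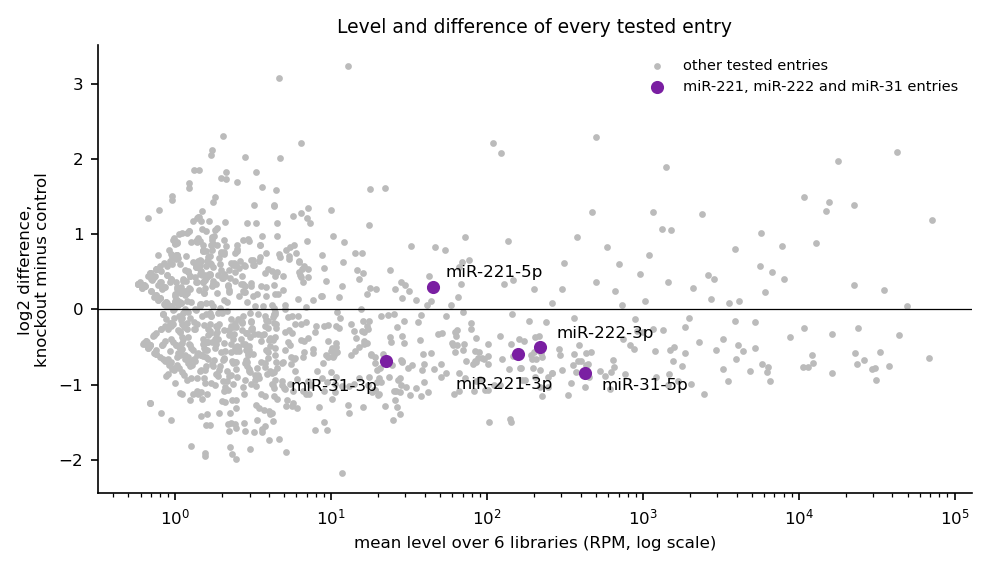
Mean level over the 6 libraries (horizontal, RPM, log axis) against the log2 difference of knockout minus control (vertical) for the 1114 tested entries in grey, with the 5 miR-221, miR-222 and miR-31 entries averaging 10 RPM or more in purple. Most grey points above 10 RPM lie below 0, as do miR-221-3p, miR-222-3p, miR-31-5p and miR-31-3p, whereas miR-221-5p lies at 0.29.

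Rescaled so that the ordinary named entries of each library had the same total, the 2 arms with the shared seed overlapped between the groups. miR-222-3p stood at 505 ± 28.1 in the knockout and 516 ± 10.6 in the control group, and miR-221-3p at 353 ± 30.99 in the knockout and 384 ± 23.5 in the control group (scaled reads, mean ± SD, n = 3 each). Their log2 differences on this scale were -0.03 (95% interval -0.40 to 0.33) and -0.12 (-0.51 to 0.26), with limma adjusted p of 0.929 and 0.785. miR-31-5p had 837, 994 and 721 in the knockout libraries, against 1113, 1097 and 1092 in the control libraries, which still did not overlap. Its log2 difference was -0.38 ± 0.18 (SE, limma adjusted p = 0.336). miR-221-5p had 135, 112 and 181 in the knockout libraries, against 90.4, 82.1 and 74.5 in the control libraries. On this scale the miR-221-5p groups no longer overlapped, with a log2 difference of 0.76 ± 0.25 (SE, limma adjusted p = 0.161). miR-31-3p averaged 47.8 ± 14.6 in the knockout and 55.6 ± 6.90 in the control group (SD, n = 3 each), which overlapped. All knockout libraries lay below all control libraries for 1 of the 6 entries and for 8.62% of tested entries, and above them for 1 of the 6 and 14.4%. The median of all tested entries on this scale was 0.07. Unlike in RPM, the SE on this scale also drew on each entry's own replicates.

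**Figure D3:**
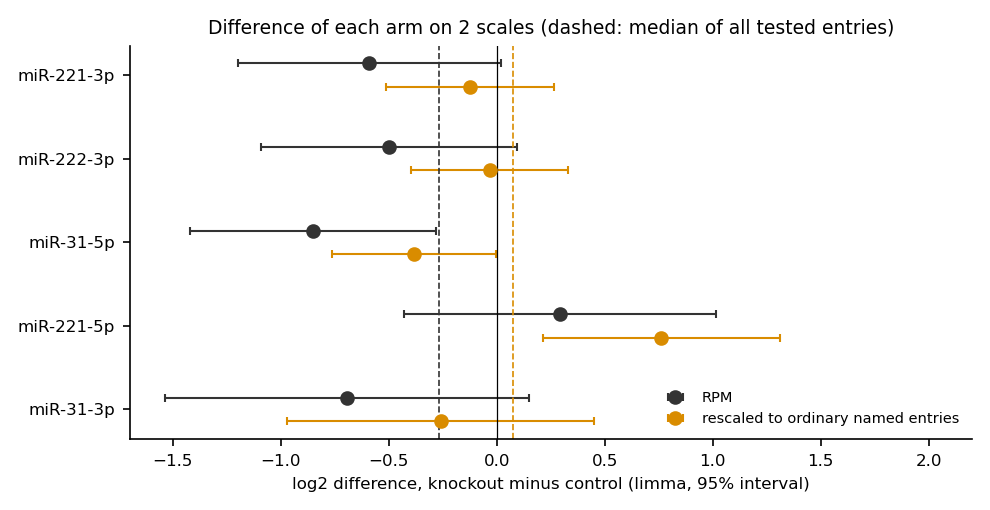
Log2 difference of knockout minus control for 5 arms (horizontal, with 95% limma intervals) in RPM (black) and after rescaling each library to its ordinary named entries (orange); dashed lines mark the median of all tested entries, -0.27 and 0.07. miR-221-3p and miR-222-3p move to near 0 after rescaling, miR-31-5p stays below 0 at -0.38 and miR-221-5p stands at 0.76; miR-222-5p, with 0 to 5 reads per library, is left out.

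Ratios between the RPM values of 2 arms of the same library do not depend on how that library was scaled, and they were compared next. Their log2 differences were taken after 1 RPM was added to each arm, so these do depend on scale where an arm is low. With 0.5 and 5 RPM added, the arm ratio difference was 0.89 and 0.84 for miR-221, and -0.14 and -0.27 for miR-31. The miR-221 hairpin had a higher share of its 5p arm in each knockout library than in any control library. The ratio of miR-221-5p to miR-221-3p was 0.368, 0.2996 and 0.569 in knockout replicates 1, 2 and 3, against 0.246, 0.219 and 0.181 in control replicates 1, 2 and 3. All 3 knockout ratios were above all 3 control ratios, and replicate 3 of the knockout stood well above the others. The 5p arm made up 28.7% ± 6.80 of the reads of both arms in the knockout and 17.7% ± 2.22 in the control group (mean ± SD, n = 3 each). In single libraries this share was 36.3% in knockout replicate 3 (99 of its reads 5p and 174 3p; exact Clopper-Pearson 95% interval 30.6% to 42.3%), against 15.3% in control replicate 3 (58 and 320 reads; 11.9% to 19.4%).

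The log2 difference of the miR-221 arm ratio was 0.88 ± 0.38 (SE, 95% interval 0.05 to 1.72) and did not pass the test over 214 hairpins (limma adjusted p = 0.447). Without knockout replicate 3 it was 0.63, and the knockout ratios were still above the control ratios. By limma, 0 of the 214 hairpins (0%) were called for their arm ratio, and an unadjusted p under 0.05 was reached by 15 with a higher and 8 with a lower ratio. Arm ratios did not overlap between the groups for 1 of the 3 hairpins described here and for 15.9% of the 214. The miR-221 difference was the 40th highest of the 214 and the 4th highest of the 36 hairpins whose arms both averaged 10 RPM or more. The median of those 36 was 0.15, and miR-221 had a limma adjusted p = 0.0901 among them.

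miR-31 is the hairpin of the 3 in which the 5p arm dominates. The ratio of miR-31-5p to miR-31-3p was 14.5, 18.2 and 23.2 in the knockout libraries, against 21.9, 17.3 and 20.7 in the control libraries. The groups overlapped widely, and the 5p arm took 94.7% ± 1.16 of the reads in the knockout and 95.2% ± 0.587 in the control group (mean ± SD, n = 3 each). The log2 difference was -0.16 ± 0.35 (SE, 95% interval -0.93 to 0.61, limma adjusted p = 0.914). miR-222 gave almost only its 3p arm, with miR-222-5p at 0.825% ± 0.253 of the reads of both arms in the knockout and 0.428% ± 0.742 in the control group. With 0 to 5 reads for that arm, the arm ratio of miR-222 was not measurable here.

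**Figure D4:**
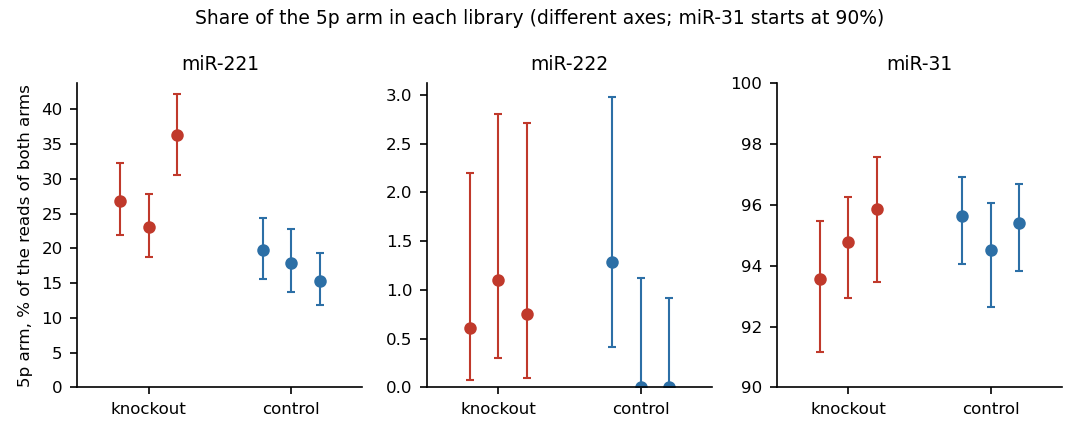
Share of the 5p arm in the reads of both arms (vertical, %) for miR-221, miR-222 and miR-31 in the 3 knockout (red, left) and 3 control libraries (blue, right), with exact Clopper-Pearson 95% counting intervals that take a listed 0 as 0 reads; the axes differ and that of miR-31 starts at 90%. For miR-221 the knockout points (23.1% to 36.3%) lie above the control points (15.3% to 19.8%), while for miR-31 they overlap.

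The proportion of the 2 arms with the shared seed overlapped between the groups. The ratio of miR-221-3p to miR-222-3p was 0.688, 0.746 and 0.664 in the knockout libraries, against 0.698, 0.742 and 0.798 in the control libraries (log2 difference -0.09, exact 2-sided permutation p = 0.3). The proportion of miR-31-5p to either of them was below every control value in each knockout library. Both ratios contain miR-31-5p, so they are not independent. How many other entries would show such a ratio was not computed. Its ratio to miR-222-3p was 1.57, 1.98 and 1.51 in the knockout libraries, against 2.11, 2.17 and 2.12 in the control libraries, a log2 difference of -0.35. Its ratio to miR-221-3p was 2.28, 2.655 and 2.27 in the knockout libraries, against 3.03, 2.93 and 2.656 in the control libraries, a log2 difference of -0.26. For both ratios the groups did not overlap although, for miR-221-3p, knockout replicate 2 and control replicate 3 were almost equal (exact permutation p = 0.1 for each, 0.2 when adjusted over the 6 ratios compared). The arm ratio of miR-221 gave the same p of 0.1 in the exact permutation test and 0.2 when adjusted.

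The course over the 6 libraries was also set against that of 269 other named entries averaging 10 RPM or more, as the root-mean-square difference of log2 values centred on each entry's mean, a description only. miR-31-5p was most like miR-145a-3p (0.062), miR-99a-5p (0.0727) and miR-26b-5p (0.0847). Of these, miR-145a-3p was called lower in RPM (-0.89, limma adjusted p = 0.0457). miR-222-3p was most like miR-206-3p (0.048), miR-191-5p (0.0521) and miR-23b-3p (0.06). miR-221-3p was most like miR-17-5p (0.0596), miR-24-3p (0.0645) and miR-16-5p (0.0742), and 7 of the 269 were closer to it than its neighbour miR-222-3p was (0.0869). Its own partner arm miR-221-5p was at 0.532 from it, beyond the median of 0.316 for the 269 entries. miR-221-5p was most like miR-207 (0.0776), miR-96-5p (0.116) and miR-145a-5p (0.171). miR-31-3p was most like miR-152-3p (0.0692), let-7b-3p (0.0824) and miR-192-5p (0.0996). miR-222-5p, from few reads, was at least 0.519 from any of them, with miR-7074-3p, miR-6391 and miR-7033-5p the nearest.

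Growth miRNAs often described with miR-221 and miR-222, and miRNAs of the same chromosome, are given for comparison. Of 12 tested growth and cell-cycle miRNAs, limma called 0 in either direction. An unadjusted p under 0.05 was reached by 2 of the 12 below 0 and by 0 above 0, against 14.6% and 5.39% of all tested entries, and the median log2 difference was -0.37. miR-25-3p of this list had 573 ± 239 RPM in the knockout and 974 ± 132 RPM in the control group (SD, n = 3 each, -0.86, limma adjusted p = 0.05197). The most abundant of the list, miR-21a-5p, stood at -0.24 (limma adjusted p = 0.747). miR-92a-3p stood at -0.84 and miR-10b-5p at -0.52 (limma adjusted p = 0.064 and 0.337). Of 53 other tested entries placed on chromosome X, 2 were higher and 2 lower by limma, near the 2.15% and 2.69% of all tested entries, with a median of -0.36 against -0.27. In RPM, miR-542-3p (1.43, limma adjusted p = 0.00103) and miR-878-3p (1.29, limma adjusted p = 0.000813) were called higher. Also among the most abundant of the list, miR-2137 stood at 0.08 and miR-351-5p at -0.77 (limma adjusted p = 0.879 and 0.0858). mmu-miR-503-5p (-1.50, limma adjusted p = 0.000329) and mmu-miR-450a-5p (-1.09, limma adjusted p = 0.0363), named after their values were seen, were called lower in RPM. After rescaling to ordinary named entries, only 1 entry of the whole table was called lower.

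Markers of the cells the vesicles could come from were measured beside these values. Of 11 mesenchymal lineage miRNAs 10 were in the table, and their summed level was 60979 to 111526 RPM in the knockout and 147597 to 170412 RPM in the control libraries. Limma called 2 of these 10 lower and 0 higher (median log2 difference -0.76), against 2.69% lower and 2.15% higher of all tested entries, whose median was -0.27. Ordinary named entries averaging 10 RPM or more, nearer to these in level, had a median of -0.60. An unadjusted p under 0.05 was reached by 7 of the 10, all below 0, against 14.6% of all tested entries below 0. When only the 355 entries averaging 10 RPM or more were tested, 128 were lower at an unadjusted p under 0.05. In that test limma called 71 lower. All 4 endothelial miRNAs, the arms of the miR-126a and miR-126b hairpins, were present, at a summed 23.4 to 52.2 RPM in the knockout and 85.1 to 105 RPM in the control libraries, and limma called 0 of them. An unadjusted p under 0.05 was reached by 3 of the 4, all below 0, against 14.6% of all tested entries below 0. The median of the 4 was -1.29, against -0.27 over all tested entries and -0.60 over ordinary named entries averaging 10 RPM or more. Arms of the same hairpin are not independent of each other. Of 9 blood cell miRNAs 8 were in the table, at 263 to 485 RPM in the knockout and 630.2 to 888 RPM in the control libraries, with miR-142a-3p at a mean under 1 RPM and 2 of 7 tested called lower (median -1.03). Of those 7, 5 had an unadjusted p under 0.05, all below 0. Over all tested entries 2.69% were called lower and 14.6% were lower at an unadjusted p under 0.05, with a median of -0.27. Among the entries averaging 10 RPM or more, these counts were higher, as given for the mesenchymal list. The endothelial and blood cell sums, like those of the mesenchymal list, were lower in all knockout libraries, and their part in the values of miR-221-3p, miR-222-3p and miR-31-5p was not tested. Epithelial miRNAs came to 18.5 to 34.8 RPM in the knockout and 24.5 to 25.2 RPM in the control libraries, from 7 of 7 listed, with 0 of 5 tested called by limma or at an unadjusted p under 0.05 (median 0.03). Muscle miRNAs came to 40.3 to 57.6 RPM in the knockout and 71.0 to 85.1 RPM in the control libraries, nearly all miR-206-3p (-0.56, limma adjusted p = 0.380), from 3 of 4 listed, with miR-1a-3p and miR-133a-3p at a mean under 1 RPM.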

How the data were processed

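What the authors deposited for the 6 libraries are RPM values; from the column sums, the total is that of all listed entries. The submitters' processing notes name fastp and edgeR but no role for either. Neither aligner nor build is stated in any source used here. Reads were recovered by taking 0.5 times the smallest value above 0 in a column as 1 read, which made every value whole (tolerance 0.001 read). They served for counting intervals; no entry stood at 1 read, and no count test was run.

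Entries with at least 1 RPM in at least 3 libraries were tested on log2(RPM + 1) by limma 3.58.1 (R 4.3.3) with its trend option, 2-sided, and adjusted over all 1114 tested entries; that scale understates changes of low entries. In this RPM fit the spread came from the trend alone (4456 degrees of freedom), so an entry's own replicates hardly entered its SE. The fit rescaled to ordinary named entries and the arm ratio fit had 12.2 and 11.5 degrees of freedom. Own replicates did enter the SE there, so SE and intervals are not like for like between these fits. Arm ratios were fitted over all hairpins with both arms past the filter, on log2((5p + 1)/(3p + 1)). Ratios within a library had exact permutation tests. The scripts were tested on simulated data. The lists and members were chosen with earlier results of these data known, and lists are described by counts and medians; 1 list is not reported here. The entries named as most alike are the 3 nearest for each member. Same-numbered libraries did not deviate together (Pearson's r of their deviations over entries, themselves no replicates, of 0.0055, -0.024 and 0.011). What a number marks is not given in the labels, so these values cannot exclude a pairing.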

Additional observations from a re-analysis of the deposited data

How the results depend on the processing

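For the entries other than miR-222-5p, and for the miR-221 and miR-31 arm ratios, the direction held in each alternative run except for miR-222-3p. That entry stood at 0.00814 after quantile normalization. miR-222-5p and the miR-222 arm ratio rest on too few reads for a direction. For the 6 entries and their arm ratios, the side of the threshold held except for the 3 settings given for miR-31-5p. The log2 difference of miR-31-5p ranged from -1.06 to -0.38, that of miR-221-3p from -0.72 to -0.12, and that of the miR-221 arm ratio from 0.63 to 1.08. Over all entries, the number called lower was 30. It was 15 with a pseudocount of 0.5 or with no filter, 71 among entries averaging 10 RPM or more, 17 with a robust prior, 5, 1, 8 and 16 with rescaling to named entries, rescaling to ordinary named entries, median centring and quantile normalization, and 2 to 37 with 1 library left out (3, 7 and 2 without control replicates 1, 2 and 3). Without a trend limma called 0 lower and 0 higher (75 and 55 at an unadjusted p under 0.05). The number called higher was 24, and 9 to 26 with 1 library left out (15 and 9 without control replicates 2 and 3). Hairpins called for their arm ratio numbered 0 in the design as fixed and with 1 library left out, 4 with a pseudocount of 5, 2 among abundant hairpins and 1 with a robust prior. With the replicate number as a block, limma called 11 entries lower and 19 higher, and miR-31-5p stood at -0.85 (limma adjusted p = 0.112). What a replicate number marks is not given in the labels. The causes were not tested. Count tests on recovered reads were not run. With 3 libraries a group and few reads for the lesser arms, depth limits miR-222-5p most.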
